A study of Mus musculus with 6 samples.

Results

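Autophagy genes build the double membrane that encloses cytoplasm and carries it to the lysosome, and receptor proteins choose the cargo. The genes described here are 34 such genes of the mouse, 29 of the core machinery and 5 receptors, taken by gene symbol from a fixed list out of the 24940 genes of the deposited table. All 34 were found, and all 34 averaged 0.5 RPKM or more across the 6 libraries, the limit for testing, which 11595 genes of the table met. Osteoclast precursors, which are bone marrow-derived macrophages (BMMs) grown with M-CSF, were kept for 3 days under 3 conditions with 2 libraries each. The -R cultures received M-CSF at 30 ng/mL, the +R cultures also received RANKL at 100 ng/mL, the cytokine that drives precursors to become osteoclasts, and the R+LE cultures received both together with the methanol extract of Abeliophyllum distichum leaves (LE), for which the labels give 10 μg/mL. The labels describe C57BL/6 mice aged 6 to 8 weeks, while the methods of the study describe male ICR mice. No source used here says that the 2 libraries of a condition came from separate cultures or animals, so p-values measure only the spread between these libraries.

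In autophagy, the ULK1 kinase complex receives signals from nutrient sensors and starts the process, and the class III PI3 kinase complex then marks the site with the lipid PI3P. Proteins that bind PI3P and proteins that carry lipid extend the membrane, and a pair of ubiquitin-like conjugation reactions attach the ATG8 proteins (the LC3 and GABARAP families) to it, where receptors such as p62 dock. In osteoclasts, ATG proteins and LC3 are also known to act at the ruffled border, the membrane through which acid and proteases are secreted onto bone.

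Values are RPKM, reads per kilobase of transcript and scaled to the mapped reads of the library, so levels of different genes can be compared per length. The values fell on whole-read steps, from which 29390083 to 34846241 mapped reads per library were recovered. Of these, between 74.2% and 80.7% lay on genes, with the lowest share in R+LE replicate 2. Rn45s, the ribosomal RNA precursor, held 6.83% and 4.97% of these gene reads for the -R libraries, 10.9% and 11.1% for +R, and 11.2% and 13.5% for R+LE, and its part in the results was not tested. The fewest reads on any autophagy gene in any library were 82, on Atg10, and the most were 17598, on Sqstm1. A limit of 3 reads on a transcript of 1 kb, which covers counting error only, would be 0.0861 to 0.102 RPKM, under every level of these 34 genes. The 8 osteoclast markers checked summed to between 43.4 and 45.0 RPKM in -R, 1888 to 2155 RPKM in +R and 339 to 392 RPKM in R+LE, and the 5 macrophage markers to between 1380 and 1485, 790 and 900.3, and 699.8 and 852 RPKM. The macrophage markers did not all move alike. Csf1r, Cd68, Fcgr1 and Adgre1 averaged less in +R and in R+LE than in -R, with Adgre1 at 184, 102 and 148 RPKM in -R, +R and R+LE. Itgam averaged more, at 70.5, 90.2 and 104 RPKM. Markers of T cells (Cd3e at 0 throughout), B cells and neutrophils summed to at most 0.802, 0.936 and 0.56 RPKM in any library, and the mast cell and erythroid markers were listed at 0. The 4 stromal markers, which are Cxcl12 and collagen genes, summed to between 14.7 and 16.3 RPKM in -R, 10.3 and 14.4 in +R, with 7.54 and 8.60 in R+LE, and the 3 endothelial markers to between 1.85 and 2.0, 1.97 and 2.07, and 0.65 and 0.717 RPKM. The part of either list in the results was not tested. In such bulk libraries, fewer cells of a type and less RNA per cell cannot be told apart.

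The stretches of 150 bases before the start sites of 4 autophagy genes are printed because Sqstm1 had the largest change with RANKL and Gabarapl1 the largest with LE among the 34 genes, and because Atg3 and Atg5 hold the sequence CACGTG, the centre of the element through which TFEB and related factors drive lysosome and autophagy genes. Capitals mark CACGTG. The sequences are those of RefSeq on GRCm38.p6, 5′ to 3′ on the strand of the gene, at chr11:50210821-50210970 (minus strand) for Sqstm1, chr6:129533042-129533191 (plus) for Gabarapl1, chr16:45158679-45158828 (plus) for Atg3 and chr10:44268189-44268338 (plus) for Atg5.
Sqstm1: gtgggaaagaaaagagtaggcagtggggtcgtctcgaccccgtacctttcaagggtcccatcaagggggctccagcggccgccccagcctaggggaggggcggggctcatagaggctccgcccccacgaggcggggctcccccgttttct
Gabarapl1: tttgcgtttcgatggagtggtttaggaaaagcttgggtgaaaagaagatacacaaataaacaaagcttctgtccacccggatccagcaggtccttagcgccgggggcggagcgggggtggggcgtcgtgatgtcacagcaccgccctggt
Atg3: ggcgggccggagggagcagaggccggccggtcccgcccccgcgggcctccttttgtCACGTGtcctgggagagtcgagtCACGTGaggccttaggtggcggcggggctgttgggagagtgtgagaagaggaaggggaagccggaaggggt
Atg5: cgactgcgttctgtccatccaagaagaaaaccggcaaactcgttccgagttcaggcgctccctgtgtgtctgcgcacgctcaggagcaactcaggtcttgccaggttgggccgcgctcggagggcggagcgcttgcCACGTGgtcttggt

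The promoter table held windows of 300 bases for 28 of the 34 genes, 30 windows in all. CACGTG, which reads the same on both strands, was in 4 of the 30 windows (13.3%), those of Atg3, Atg5, Atg7 and Atg14, against 7.15% of all 32851 windows. TGACNNNGC, the core of the antioxidant response element bound by Nrf2, searched on both strands, was in 4 of the 30 windows (13.3%), those of Atg13, Map1lc3b, Tax1bp1 and Ulk2, against 12.4% of all windows. The windows of Sqstm1, Gabarapl1, Nbr1 and Wipi1 held neither. The window of Atg7 lies at a start site 27999 bases from that of the transcript counted in the table.

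The levels of the 34 genes spanned 2 orders of magnitude. Gabarap, an ATG8 protein, was the highest in every library at 171 to 309 RPKM, followed by Sqstm1, which encodes p62, at 115 to 275 RPKM. Gabarap and Sqstm1 lay at percentiles 98.1 and 97.7 of the mean level of all tested genes. Map1lc3b, which encodes LC3B, Gabarapl2, Tax1bp1 and Becn1 came next, each between 27.8 and 55.8 RPKM in all 6 libraries. Optn, which encodes the receptor optineurin, was the lowest at 1.08 to 1.93 RPKM, and Atg10, an E2-like enzyme, and Atg16l2 were the next lowest in the mean over the libraries.

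**Figure D1:**
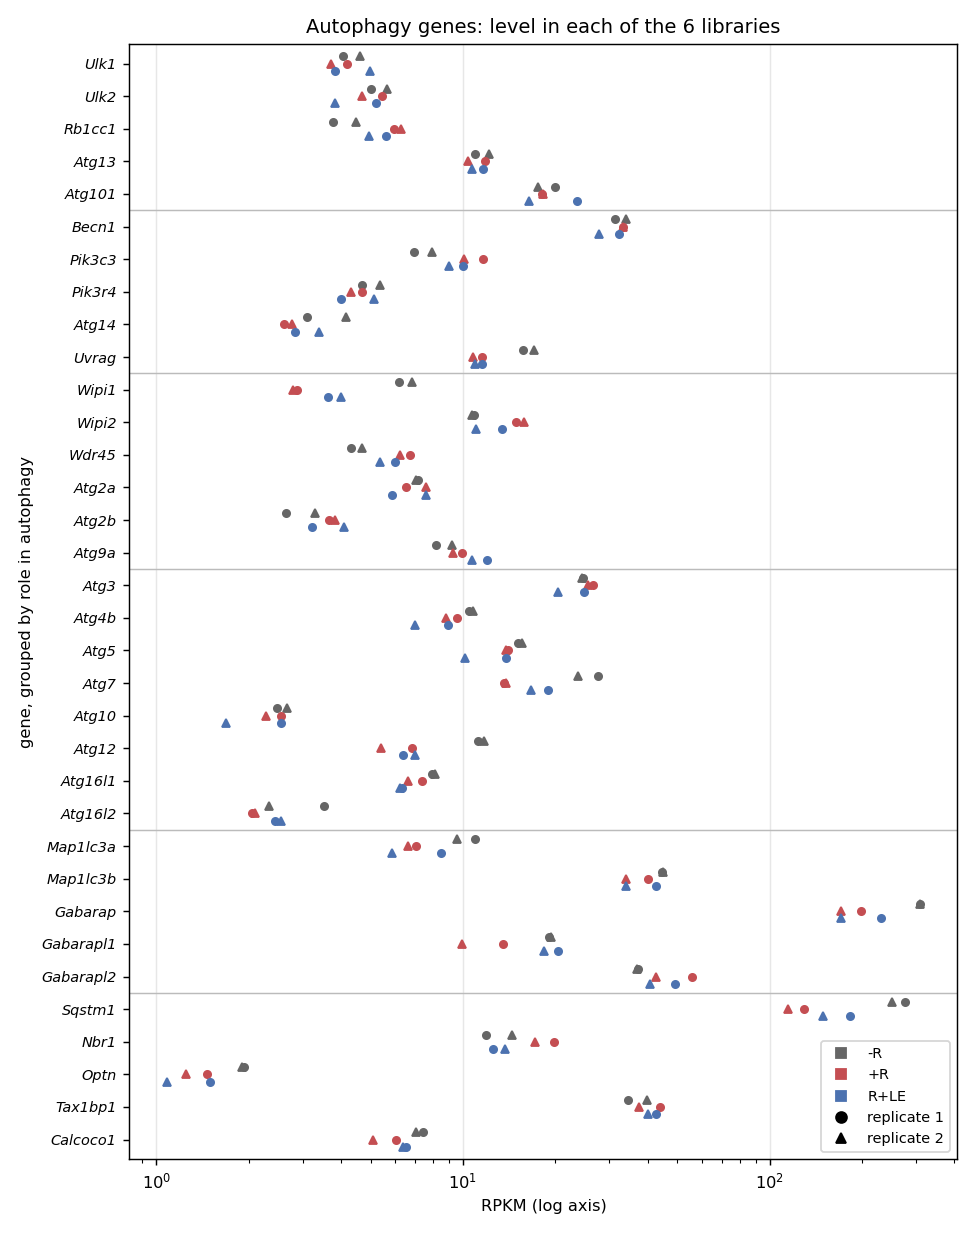
RPKM (horizontal log axis) of each of the 34 autophagy genes (rows, in 6 role groups) in the 6 libraries, with colours for -R, +R and R+LE and circles or triangles for replicate 1 or 2. Gabarap and Sqstm1 lie far to the right of the other genes in all 6 libraries, and their -R points lie to the right of their +R points.

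To ask how RANKL changed these genes, +R was compared with -R on log2(RPKM + 0.5) with limma, fitted across all 11595 genes and all 6 libraries. A gene passed where its p-value, adjusted by the Benjamini-Hochberg method, was below 0.05. With RANKL, 8 of the 34 genes fell and 5 rose, led by falls of Sqstm1, Wipi1, Atg7 and Atg12 and rises of Rb1cc1 and Pik3c3. Over all genes tested, 21.5% were lower and 23.9% higher at this threshold, so the share of autophagy genes that fell (23.5%) was near that background and the share that rose (14.7%) was under it. Taken in either direction, 45.4% of all genes passed. The 2 libraries of +R did not overlap those of -R for 26 of the 34 genes, against 75.2% of all genes. The median log2 fold change was -0.13 over the 34 genes and 0.05 over all genes. At a fold change of at least 2 as well, Sqstm1 and Wipi1 were lower and 0 of the 34 were higher, also 0 with voom on the recovered reads, against 8.92% and 6.58% of all genes, and at an unadjusted p below 0.05, which 52.1% of all genes met in either direction, 6 of the 34 were higher and 10 lower. Without -R replicate 1, none of the 34 genes passed as higher and 7 passed as lower.

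In the ULK1 complex, 1 of 5 genes rose (20%) and none fell with RANKL, against 23.9% and 21.5% of all genes. Rb1cc1 (mm10 chr1:6214662-6276104), which encodes FIP200, the scaffold of the complex, was 3.77 and 4.47 RPKM in -R, 5.95 and 6.27 in +R, with 5.61 and 4.94 in R+LE. The +R libraries were both higher than either -R library, and the log2 fold change was 0.52 (standard error, SE, 0.15, adjusted p = 0.00876 in limma). It missed the threshold without -R replicate 1 and without +R replicate 2, with an adjusted p of up to 0.0919. For Ulk1 and Ulk2, the kinases, and Atg13 and Atg101, their partners, the conditions overlapped in all 3 comparisons and none passed. Ulk1 was between 3.72 and 4.96 RPKM, Ulk2 between 3.83 and 5.64, Atg13 between 10.4 and 12.2 and Atg101 between 16.4 and 23.6.

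In the class III PI3 kinase complex, Pik3c3 rose and Uvrag fell with RANKL. Each was 1 of 5 genes (20%), against 23.9% higher and 21.5% lower over all genes. Pik3c3, the catalytic subunit VPS34, was 6.92 and 7.92 RPKM in -R, 11.6 and 10.1 in +R, with 9.99 and 9.02 in R+LE, and its log2 fold change with RANKL was 0.52 (SE 0.14, adjusted p = 0.00752 in limma). It missed the threshold without -R replicate 1 or without +R replicate 1, with an adjusted p of up to 0.0907. Uvrag (chr7:98886743-99141144), the subunit of the complex that acts on endosomes and late autophagosomes, was 15.7 and 17.1 RPKM in -R, 11.5 and 10.8 in +R, with 11.5 and 10.9 in R+LE. The -R libraries lay above the other 4, which overlapped. Its log2 fold change with RANKL was -0.54 (SE 0.13, adjusted p = 0.0042). Within each library, which removes any scaling between libraries, the ratio of Pik3c3 to Uvrag was 0.44 and 0.46 in -R, 1.01 and 0.94 in +R, with 0.87 and 0.82 in R+LE. Atg14, the subunit that directs the kinase to forming autophagosomes, was 3.10 and 4.15 RPKM in -R and 2.61 and 2.77 in +R (log2 fold change -0.36, adjusted p = 0.097). Becn1, the Beclin 1 scaffold, stayed between 27.8 and 34.1 RPKM and Pik3r4, the VPS15 subunit, between 4.0 and 5.36 RPKM, and neither passed in any comparison.

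Of the 6 genes for PI3P effectors and lipid transfer, Wipi1 fell and Wipi2 and Wdr45 rose with RANKL. These shares, 16.7% lower and 33.3% higher, stand against 21.5% and 23.9% of all genes. Wipi1, Wipi2 and Wdr45 belong to the same family of PI3P-binding propeller proteins. Wipi1 (chr11:109573521-109611389) was 6.17 and 6.80 RPKM in -R, 2.87 and 2.78 in +R, with 3.64 and 3.99 in R+LE, so that the libraries of the 3 conditions did not overlap. Its log2 fold change with RANKL was -1.07 (SE 0.14, adjusted p = 2.09e-05 in limma). Wipi2, which recruits the ATG16L1 complex, was 10.9 and 10.7 RPKM in -R, 14.9 and 15.9 in +R, with 13.4 and 11.03 in R+LE, a log2 fold change with RANKL of 0.49 (adjusted p = 0.0101). Wdr45, which encodes WIPI4, was 4.31 and 4.70 RPKM in -R, 6.72 and 6.25 in +R, with 6.02 and 5.36 in R+LE, a log2 fold change of 0.48 (adjusted p = 0.0113). The ratio of Wipi1 to Wipi2 within a library was 0.57 and 0.64 in -R, 0.19 and 0.18 in +R, with 0.27 and 0.36 in R+LE. Without -R replicate 1 the log2 fold changes of Wipi2 and Wdr45 were 0.50 and 0.43 and both missed the threshold (adjusted p of up to 0.0683 for Wipi2 and 0.0891 for Wdr45 over the alternatives), and Wipi2 also missed the threshold without -R replicate 2 or +R replicate 2, and Wdr45 without +R replicate 1. The lipid transfer genes Atg2a and Atg2b and the scramblase gene Atg9a did not pass in any comparison. They were between 5.88 and 7.60, 2.65 and 4.08, and 8.18 and 12.0 RPKM, and the highest Atg9a levels were those of R+LE. The log2 fold change of Atg9a in R+LE against -R was 0.36 (adjusted p = 0.0544 in limma). It passed with a minimum mean of 1 RPKM, median centring, quantile normalization, the block for the replicate number and voom on the recovered reads. It also passed without R+LE replicate 2, which makes 6 of the 16 alternatives.

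Among the 8 conjugation genes, Atg7 and Atg12 fell with RANKL and none rose. The share that fell, 25%, was near the 21.5% of all genes, while 23.9% of all genes rose. Atg7 (chr6:114643097-114860614), the E1-like enzyme that activates both ATG12 and the ATG8 proteins, was 27.5 and 23.8 RPKM in -R, 13.6 and 13.8 in +R, with 19.0 and 16.7 in R+LE. All 3 conditions were separate, and its log2 fold change with RANKL was -0.88 (SE 0.14, adjusted p = 0.000118 in limma). Atg12, the ubiquitin-like protein that is joined to ATG5, was 11.2 and 11.7 RPKM in -R, 6.83 and 5.41 in +R, with 6.36 and 6.96 in R+LE, with a log2 fold change of -0.86 (SE 0.15, adjusted p = 0.0002). The +R and R+LE libraries of Atg12 overlapped and lay below both -R libraries. Their partner Atg5 was 15.1 and 15.6 RPKM in -R, 14.0 and 13.8 in +R, with 13.8 and 10.1 in R+LE, and did not pass in any comparison. Atg3, the E2-like enzyme for the ATG8 proteins, was between 20.4 and 26.4 RPKM, Atg10 between 1.68 and 2.67, Atg16l1 between 6.25 and 8.11 and Atg16l2 between 2.05 and 3.52, and none of the 4 passed in any comparison. Atg4b, the protease that trims the ATG8 proteins, did not pass with RANKL, with 10.4 and 10.8 RPKM in -R and 9.57 and 8.82 in +R.

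Of the 5 ATG8 genes, Gabarap, Gabarapl1 and Map1lc3a fell with RANKL. That is 60% of a group of only 5, against 21.5% of all genes, and none rose, against 23.9%. Gabarap (chr11:69991370-69994949) was 309 and 308 RPKM in -R, 199 and 171 in +R, with 229.9 and 171 in R+LE. Its log2 fold change with RANKL was -0.74 (SE 0.18, adjusted p = 0.00328 in limma), which missed the threshold without either -R library (adjusted p of up to 0.0549). Gabarapl1 (chr6:129533192-129542331) was 19.0 and 19.3 RPKM in -R, 13.5 and 9.92 in +R, with 20.5 and 18.4 in R+LE. Both +R libraries lay below the other 4, with a log2 fold change of -0.71 (SE 0.16, adjusted p = 0.00166). Map1lc3a, which encodes LC3A, was 10.97 and 9.55 RPKM in -R, 7.04 and 6.64 in +R, with 8.45 and 5.86 in R+LE (log2 fold change with RANKL -0.55, adjusted p = 0.0129). It missed the threshold without a filter on low values and without -R replicate 1 (adjusted p of up to 0.133). Map1lc3b was 44.6 and 45.0 RPKM in -R, 39.98 and 33.98 in +R, with 42.5 and 33.955 in R+LE, and did not pass (adjusted p = 0.155 with RANKL). Gabarapl2, which encodes GATE-16, was 37.3 and 36.8 RPKM in -R and 55.8 and 42.6 in +R (log2 fold change 0.39, adjusted p = 0.0595), and it passed under 8 of the 16 alternatives, among them median centring and voom on the recovered reads.

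Within a library the ATG8 genes can be set against one another without regard to scaling. These shares and the ratios were chosen after the values were seen, and the smallest p-value of an exact, two-sided permutation test in so small a design is 0.333, so they are described without a test. Gabarap made up 73.4% and 73.6% of the summed RPKM of the 5 genes in -R, 63.1% and 64.7% in +R, with 65.6% and 63.3% in R+LE. Gabarapl2 made up 8.86% and 8.80% in -R, 17.7% and 16.1% in +R, with 14.0% and 15.1% in R+LE. The share of Gabarapl2 was thus higher in each of the 4 libraries given RANKL than in both -R libraries, and that of Gabarap lower. Gabarapl1 made up 4.52% and 4.62% in -R, 4.27% and 3.76% in +R, with 5.84% and 6.80% in R+LE, its highest share. The ratio of Gabarapl1 to Gabarapl2 was 0.51 and 0.53 in -R, 0.24 and 0.23 in +R, with 0.42 and 0.45 in R+LE. The summed RPKM of the 5 genes was 421 and 419 in -R, 316 and 264 in +R, with 350.5 and 269.9 in R+LE.

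**Figure D2:**
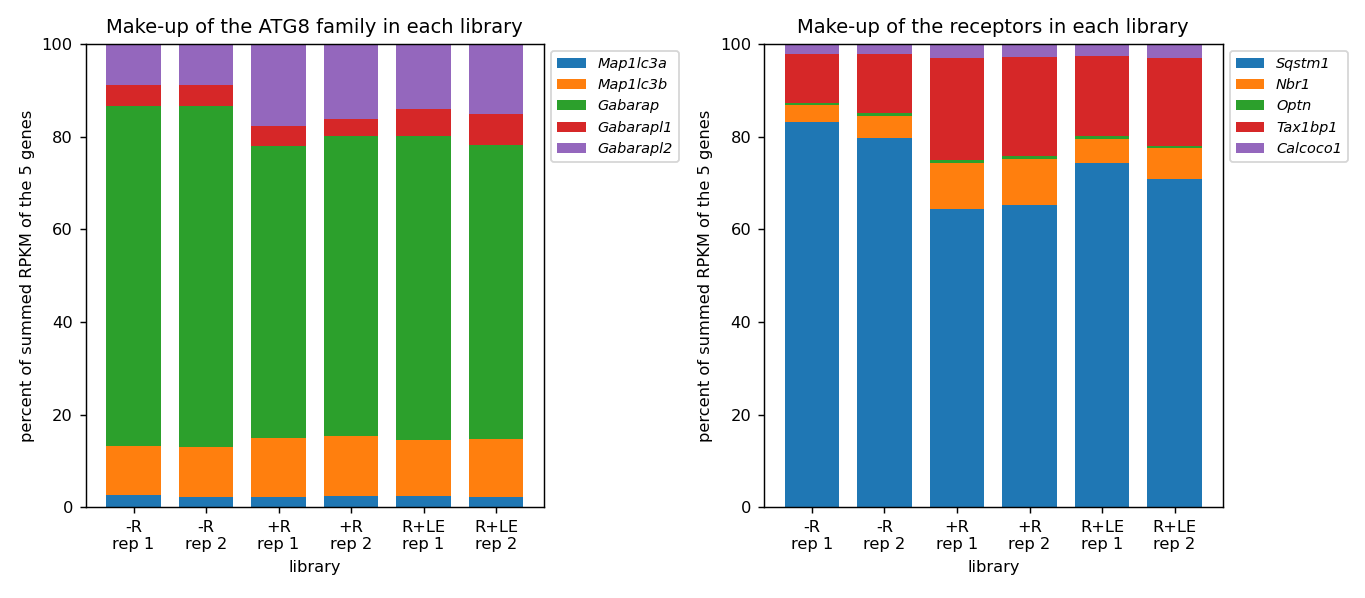
Stacked bars give the percent (vertical axis, 0 to 100) that each gene takes of the summed RPKM of the 5 ATG8 genes (left) and of the 5 receptor genes (right) in each of the 6 libraries. Gabarap and Sqstm1 are the tallest segments in every bar, and both are taller in the 2 -R libraries than in the other 4.

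Of the 5 receptors, Sqstm1 fell and Nbr1 rose with RANKL, each 20%, against 21.5% and 23.9% of all genes. Both bind ubiquitin and the ATG8 proteins and can act together on the same cargo. Sqstm1 (chr11:50200152-50210820) was 275 and 250.01 RPKM in -R, 129 and 115 in +R, with 183 and 149 in R+LE, so the 3 conditions did not overlap and R+LE lay in between. Its log2 fold change with RANKL was -1.10 (SE 0.17, adjusted p = 6.18e-05 in limma), and it passed under all 16 alternatives. Nbr1 (chr11:101552654-101581951) was 11.9 and 14.5 RPKM in -R, 19.8 and 17.2 in +R, with 12.5 and 13.7 in R+LE. Both +R libraries lay above the other 4, which overlapped, and its log2 fold change with RANKL was 0.48 (SE 0.15, adjusted p = 0.0153), with an adjusted p of up to 0.178 over the alternatives. It missed the threshold without a filter on low values, without -R replicate 1 and without +R replicate 1.

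The ratio of Sqstm1 to Nbr1 within a library was 23.2 and 17.3 in -R, 6.54 and 6.67 in +R, with 14.6 and 10.9 in R+LE. Sqstm1 made up 83.2% and 79.8% of the summed RPKM of the 5 receptors in -R, 64.5% and 65.3% in +R, with 74.4% and 70.9% in R+LE. The other receptors did not pass in any comparison. Tax1bp1, which binds ubiquitin, was between 34.5 and 44.0 RPKM with overlap between -R and +R. Optn was 1.93 and 1.91 RPKM in -R, 1.47 and 1.25 in +R, with 1.501 and 1.08 in R+LE. Calcoco1, a receptor for the endoplasmic reticulum, was 7.43 and 7.003 RPKM in -R, 6.07 and 5.08 in +R, with 6.53 and 6.39 in R+LE (log2 fold change with RANKL -0.35, adjusted p = 0.056), and passed under 7 of the 16 alternatives.

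**Figure D3:**
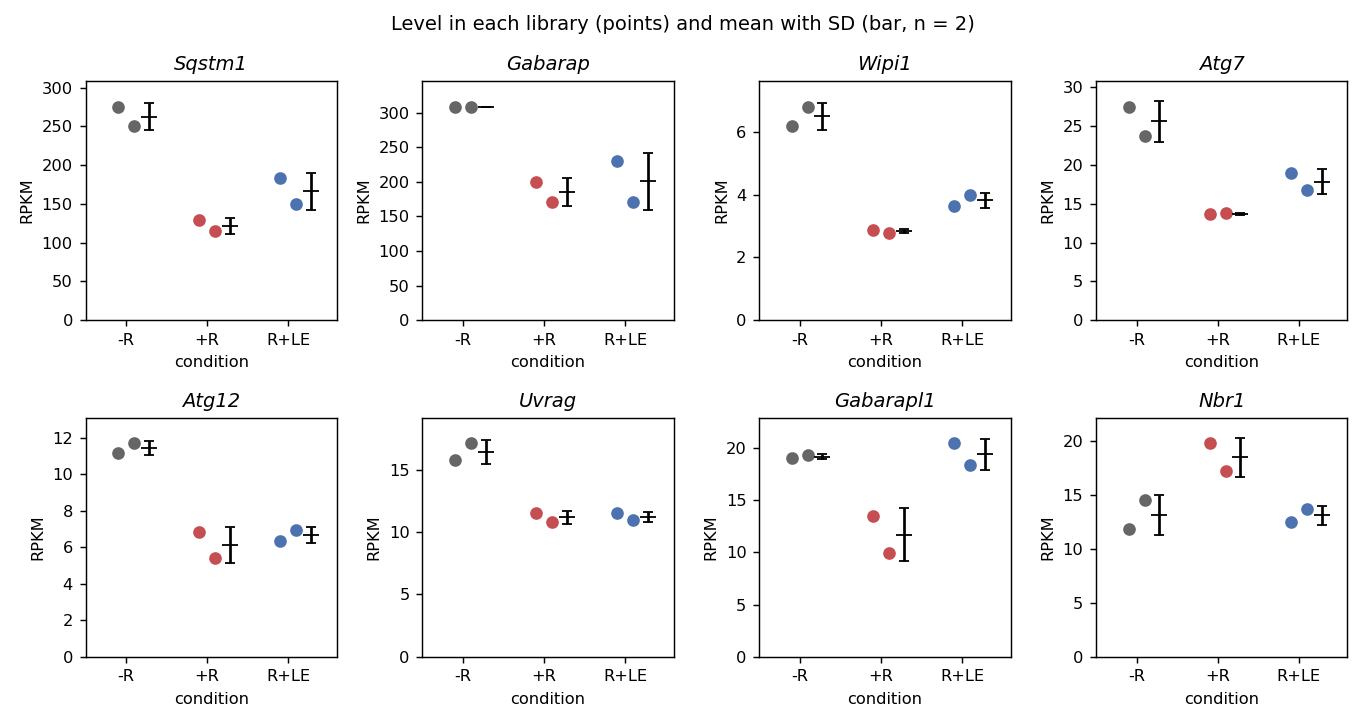
RPKM (vertical axes from 0) of 8 autophagy genes in -R, +R and R+LE, with a point for each library and, beside it, the mean with SD (n = 2). Sqstm1, Wipi1 and Atg7 were lowest in +R with R+LE in between, Gabarapl1 in R+LE overlapped its -R level, and Nbr1 was highest in +R.

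To ask what LE changed in the presence of RANKL, R+LE was compared with +R. Gabarapl1 rose and Nbr1 fell, and the other 32 of the 34 genes did not pass. Over all genes tested, 5.19% were higher and 6.86% lower, or 12.0% together, and among the autophagy genes 2.94% were higher and 2.94% lower. Gabarapl1 had a log2 fold change of 0.72 with LE (SE 0.16, adjusted p = 0.00579 in limma), from 11.7 ± 2.52 to 19.4 ± 1.48 RPKM (SD, n = 2 each). Against -R, at 19.2 ± 0.225 RPKM (SD, n = 2), its R+LE libraries lay on either side of the -R libraries. It missed the threshold without a filter on low values and without +R replicate 2 (adjusted p of up to 0.11). Nbr1 had a log2 fold change of -0.48 with LE (SE 0.15, adjusted p = 0.047), from 18.5 ± 1.83 to 13.1 ± 0.868 RPKM (SD, n = 2 each), and missed the threshold under 12 of the 16 alternatives, including each of the 6 that leave out a library (adjusted p of up to 0.321). Both values share the +R libraries with the comparison of +R and -R.

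At a fold change of at least 2, 0 of the 34 genes were called with LE in limma or with voom on the recovered reads, against 1.46% of all genes higher and 1.78% lower, and 6 of the 34 had an unadjusted p below 0.05, which 23.3% of all genes had. The R+LE and +R libraries did not overlap for 17 of the 34 genes, against 49.0% of all genes. The largest differences that did not pass were those of Sqstm1, Wipi1, Atg7 and Wipi2. Sqstm1 averaged 122 ± 10.3 RPKM with RANKL and 166 ± 23.9 with RANKL and LE (SD, n = 2 each), which differ by 0.44 on the log2 scale with an unadjusted 95% interval of 0.09 to 0.79 and an adjusted p of 0.111. It passed under 5 of the 16 alternatives, namely median centring, quantile normalization, voom on the recovered reads, the block for the replicate number and leaving out R+LE replicate 2. Wipi1 had a log2 fold change of 0.37 (interval 0.07 to 0.68, adjusted p = 0.119) and Atg7 one of 0.37 (interval 0.07 to 0.67, adjusted p = 0.119). Atg7 passed under 3 of the 16 alternatives, namely median centring, quantile normalization and voom on the recovered reads, and Wipi1 under none. Both R+LE libraries lay above both +R libraries for Sqstm1, Wipi1 and Atg7, and below both for Wipi2. The log2 fold change of Wipi2 was -0.32 (interval -0.63 to -0.02, adjusted p = 0.174). Over the 32 genes that did not pass, the intervals reached from -0.63 to 0.79, so that these data do not show that the levels were alike. Replicate 2 was lower than replicate 1 for 25 of the 34 genes in R+LE, 26 in +R and 12 in -R. The median log2 level of all tested genes moved the same way. It was 2.99 in replicate 2 of R+LE, against 3.08 in its replicate 1. For +R it was 3.052 against 3.115, and for -R 3.119 against 3.055. With each library centred on its median, 3 of the 34 genes passed as higher with LE and none as lower.

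**Figure D4:**
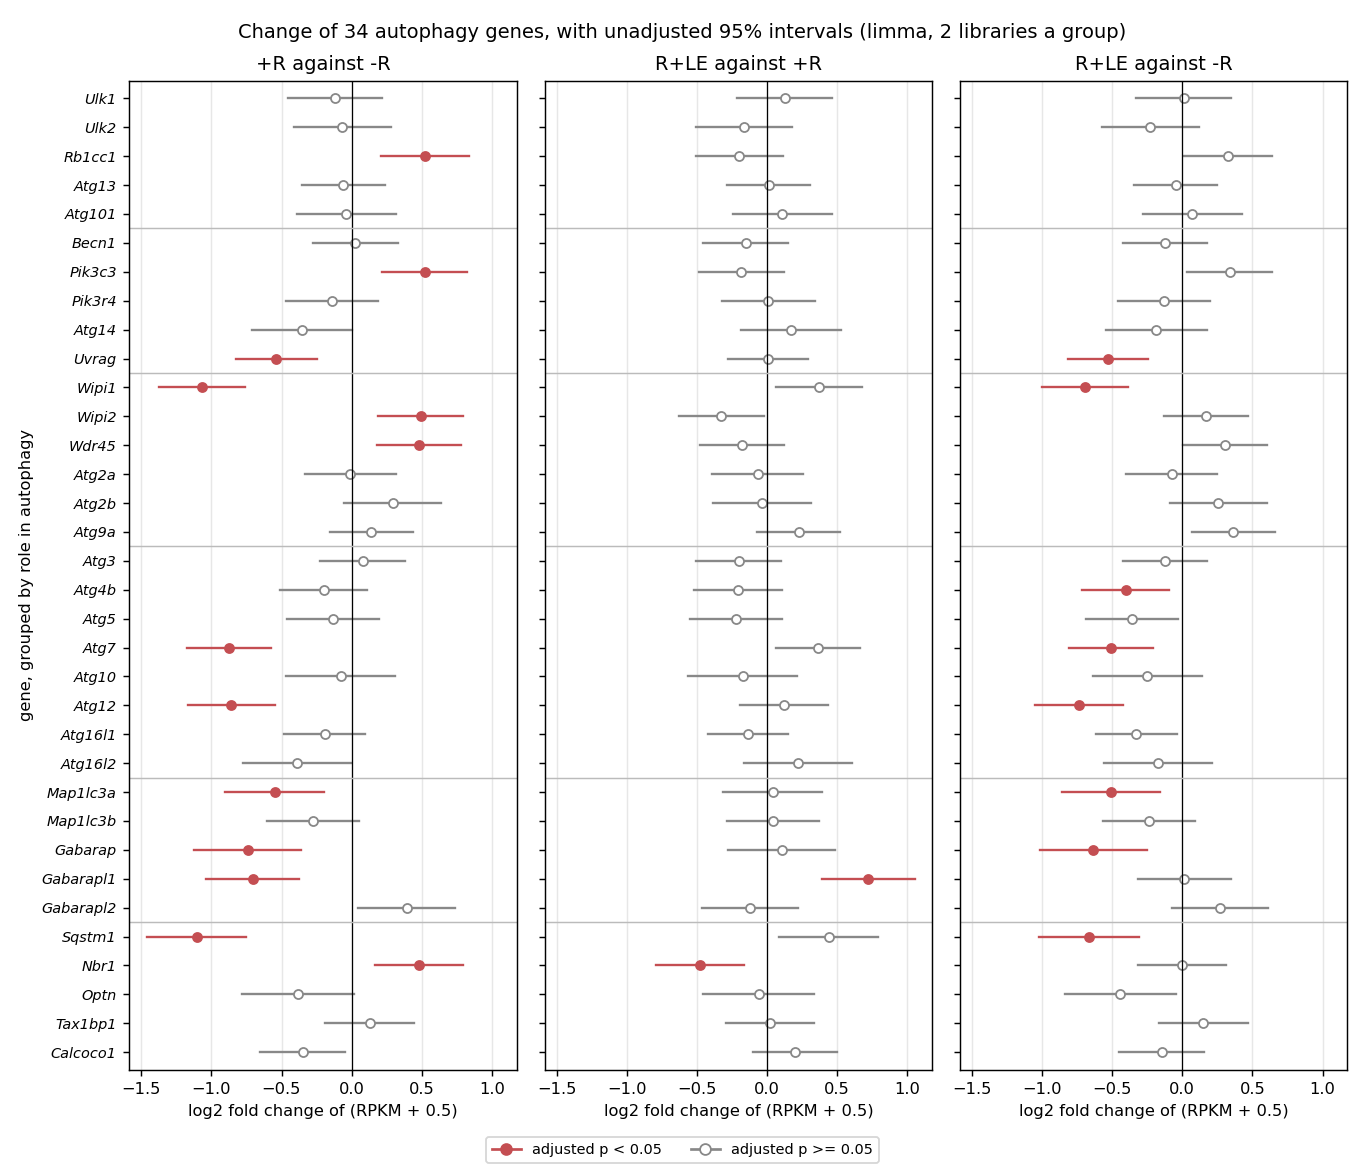
Log2 fold change of (RPKM + 0.5) with its unadjusted 95% interval (horizontal axis) for the 34 genes, in a panel each for RANKL (+R against -R), for LE with RANKL (R+LE against +R) and for both (R+LE against -R), with filled points where the adjusted p is below 0.05. There are 13 filled points in the first panel, 2 in the second (Gabarapl1 and Nbr1) and 8 in the third, all 8 of them to the left of 0.

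The R+LE cultures differed from the -R cultures in 8 of the 34 genes, all of them lower. These were Uvrag, Wipi1, Atg4b, Atg7, Atg12, Map1lc3a, Gabarap and Sqstm1, of which 7 had also fallen in +R, a comparison that shares the -R libraries. The R+LE and -R libraries did not overlap for 20 of the 34 genes, against 65.5% of all genes. Over all genes tested, 19.0% were lower and 15.3% higher, and at a fold change of at least 2 these shares were 6.36% and 3.92% against 0 of the 34 genes in either direction, also 0 with voom. None of the 34 passed as higher in limma, while 4 were higher and 11 lower at an unadjusted p below 0.05, a threshold that 43.5% of all genes met, and 3 passed as higher with voom on the recovered reads. The log2 fold change was -0.74 for Atg12 (adjusted p = 0.00108), -0.70 for Wipi1 (adjusted p = 0.00151), -0.67 for Sqstm1 (adjusted p = 0.00584), -0.64 for Gabarap (adjusted p = 0.0125), -0.53 for Uvrag (adjusted p = 0.00666), and -0.51 for both Atg7 (adjusted p = 0.0112) and Map1lc3a (adjusted p = 0.0261). Atg4b was 10.4 and 10.8 RPKM in -R and 8.93 and 6.99 in R+LE, a log2 fold change of -0.40 (adjusted p = 0.0443), and it missed the threshold under 5 alternatives. Map1lc3a missed it under 4, Gabarap under 3, and Uvrag, Atg7 and Sqstm1 under 1 each. Only Wipi1 and Atg12 passed under all 16. With each library centred on its median, 4 of the 34 genes passed as higher and 8 as lower, so that the lack of higher genes does not hold under that scaling. Leaving out -R replicate 1 reduced the 8 genes to 3 and leaving out -R replicate 2 reduced them to 4. Rb1cc1, Pik3c3 and Wdr45, which had risen in +R, were 0.32, 0.34 and 0.31 above -R on the log2 scale and did not pass (adjusted p = 0.101, 0.0804 and 0.11).

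Reads were counted without regard to strand, and 8 of the 34 genes share exon bases with a gene on the opposite strand, among them Rb1cc1, Uvrag and Gabarapl1. On the same strand, Wdr45 shares 684 of 3310 exon bases with Gm45208 and Atg9a 1832 of 5762 with Gm29253. For Gabarapl1, 570 of 2013 annotated exon bases overlap 1700101I11Rik, whose own entry held between 8 and 21 reads in any library, against 538 to 1191 reads on Gabarapl1. Uvrag shares 1589 of 9035 exon bases with Gm45187, and Rb1cc1 558 of 14690 with 4732440D04Rik. These bases are those of all annotated transcripts of a gene, while reads were counted on 1 transcript each. The transcripts counted had 1767 bases for Gabarapl1, 3421 for Uvrag and 7020 for Rb1cc1, and their own exon overlap was not measured. The Gabarapl1 transcript starts at chr6:129533192 and the 1700101I11Rik entry ends at chr6:129533284. These entries can thus share bases only between those positions.

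The steps after the autophagosome closes were read from a list of 14 genes for its fusion with the lysosome, including the HOPS tethering complex. With RANKL, 6 of the 14 fell and 1 rose, against 21.5% and 23.9% of all genes, and with LE 2 fell, against 6.86%. Plekhm1, an adaptor between RAB7 and HOPS whose loss causes osteopetrosis, was 33.4 and 33.1 RPKM in -R, 13.3 and 12.5 in +R, with 8.63 and 10.0 in R+LE. It fell by 1.33 on the log2 scale with RANKL (adjusted p = 1.32e-06 in limma) and by a further 0.45 with LE (adjusted p = 0.0461), the latter missing the threshold under 10 of 16 alternatives. Tecpr1, which binds the ATG12 and ATG5 conjugate at the lysosome, fell by 1.22 with RANKL (adjusted p = 7.28e-06) and was 9.72 and 8.87 RPKM in -R, 3.55 and 3.87 in +R, with 3.24 and 3.98 in R+LE. Vps39, a HOPS subunit that the naming rule does not cover and that was chosen after its values were seen, was 8.51 and 10.3 RPKM in -R, 15.5 and 13.9 in +R, with 9.49 and 9.501 in R+LE, with log2 fold changes of 0.62 with RANKL (adjusted p = 0.00223) and -0.60 with LE (adjusted p = 0.011). The other HOPS genes that passed with RANKL, Vps16 and Vps33a, were lower.

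In a list of 14 receptors for mitochondria, the endoplasmic reticulum and other cargo, 3 rose and 3 fell with RANKL, near the 23.9% and 21.5% of all genes, and 1 fell with LE, near the 6.86% of all genes. Ncoa4, the receptor that delivers ferritin to the lysosome, was 18.9 and 19.8 RPKM in -R, 59.1 and 51.1 in +R, with 29.4 and 20.5 in R+LE. Both +R libraries lay above the other 4. It rose by 1.48 on the log2 scale with RANKL (adjusted p = 3.65e-06 in limma) and fell by 1.15 with LE (adjusted p = 0.000301), and both passed under all 16 alternatives. The receptors for the endoplasmic reticulum Retreg1 and Tex264 fell by 1.42 and 1.15 on the log2 scale with RANKL (adjusted p = 1.63e-06 and 1.42e-05). Retreg1 was 20.9 and 23.1 RPKM in -R, 9.03 and 6.93 in +R, with 8.68 and 8.76 in R+LE, and Tex264 was 26.5 and 25.8, 13.1 and 10.1, and 12.0 and 13.3 RPKM. For neither did the R+LE libraries separate from +R. Of 9 tested genes in a list of 10 further core genes, Ambra1 and Rubcn, regulators of the class III PI3 kinase, fell with RANKL, by 0.56 and 0.67 on the log2 scale (adjusted p = 0.00433 and 0.000986), a share near the 21.5% of all genes, and none passed with LE in limma, with voom or at an unadjusted p below 0.05.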

How the data were processed

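Libraries of RNA from cultured mouse osteoclast precursors, 6 in all, were sequenced. The authors aligned paired reads of 100 bp to mm10 and deposited HOMER exon values as RPKM, counted on either strand with 1 transcript kept per gene. The paper's methods name TopHat as the aligner, while the submitters' processing notes name HISAT2, HOMER and DESeq2, without versions. Column titles in the table say FPKM. The handling of reads that map to several places is not given in the sources used here. Libraries were grouped by their labels. All 6 value columns were used, and 26 symbols turned into dates by a spreadsheet were restored from transcript identifiers.

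The 34 genes and the lists were chosen with earlier results of these data known. Genes named are all 34, and from the other lists up to 4 a list that changed at least 2-fold at an adjusted p below 0.05. Others were chosen after their values were seen. RPKM was tested as log2(RPKM + 0.5) for the 11595 genes that averaged 0.5 or more, with limma 3.58.1 (R 4.3.3), a variance trend and Benjamini-Hochberg adjustment over all of them. For low genes the true change is larger than this scale shows. Whole reads were recovered from RPKM and transcript length. At least 99.99% of the values checked in each library were whole within 0.02 read beyond the rounding of the table. Libraries of a condition were not one library deposited again: a chi-square of their reads averaged between 12.46 and 28.03 a gene by condition. Its median over genes was lower, between 2.60 and 3.99. The scripts were tested on simulated data. Promoters came from RefSeq and exons from GENCODE M21, both on GRCm38, and 33 of the 34 deposited transcripts lay inside the RefSeq gene. Versions of Python, pandas and matplotlib were 3.11.15, 2.3.3 and 3.10.9.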

Additional observations from a re-analysis of the deposited data

How the results depend on the processing

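Tests ran under 16 alternatives, all planned. The single-gene log2 fold changes followed here were chosen because they passed or were large in the main fit. Several alternatives alter the p-value but leave the log2 fold change as it was. A change of sign was therefore unlikely from the start. Of 69 single-gene log2 fold changes, 33 kept their direction and their side of the threshold throughout, and of 1102 comparisons 985 did so, 74 lost the threshold, 43 gained it and 0 changed sign. For autophagy genes higher with LE, the count of 1 became 0 without a filter on low values, 2 with the replicate block, and 3 with median centring, with quantile normalization and with voom on recovered reads. For those lower with LE, 1 became 0 with a pseudocount of 0.1, no filter, no variance trend, only the 2 groups compared, median centring and quantile normalization. For those higher in R+LE than in -R, 0 became 1 with a minimum mean of 1 RPKM and with the replicate block, 3 with voom, 4 with median centring and 5 with quantile normalization, and for those lower, 8 became 5 without a filter. Without a filter, the count of all genes passing with LE was 581 against 1397. When the libraries were left out 1 at a time, the autophagy counts ranged from 0 to 6 higher and 7 to 9 lower with RANKL, 0 to 2 higher and 0 lower with LE, and 0 to 1 higher and 3 to 10 lower in R+LE against -R. Over all genes they ranged from 3703 to 5819 with RANKL, 1034 to 1571 with LE and 2455 to 4047 in R+LE against -R, and at 2-fold from 1798 to 1886, 367 to 442 and 1200 to 1272. A lone library left in a group is assumed to vary like the others. The cause of these moves was not tested.

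No source used here says what a replicate number shares across conditions. The replicate differences correlated at -0.046 between -R and +R, 0.107 between -R and R+LE and 0.249 between +R and R+LE over 11595 genes, not above 0.1 in every case, so the numbers were not taken to pair the libraries, and a shared batch was not tested. With the replicate block, the autophagy counts were 6 higher and 9 lower with RANKL, 2 and 1 with LE, and 1 and 8 in R+LE against -R. Median centring moved the median of all genes by less than 0.1 on the log2 scale in each comparison. The median half-width of the unadjusted intervals was 0.32 on the log2 scale.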

Other observations

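The upstream nutrient sensing genes, a list of 23 for mTORC1 and AMPK control of which 22 were tested, moved with RANKL in 9 cases, with 2 higher and 7 lower, while 1 was lower with LE. In either direction 45.4% of all genes passed with RANKL. By direction, 9.09% of the list were higher and 31.8% lower with RANKL, against 23.9% and 21.5% of all genes. With LE, 4.55% of the list were lower, against 6.86% of all genes. Deptor, an inhibitor of mTOR, was 1.05 and 1.24 RPKM in -R, 5.44 and 6.34 in +R, with 3.38 and 4.10 in R+LE, so the 3 conditions did not overlap. It was 1.95 higher on the log2 scale with RANKL (adjusted p = 1.17e-07 in limma), and LE changed it by -0.59 (adjusted p = 0.0252), the latter missing the threshold under 5 of 16 alternatives. Sesn3, a sestrin that restrains mTORC1, was 1.25 and 1.15 RPKM in -R, 0.243 and 0.44 in +R, with 0.443 and 0.52 in R+LE. It averaged 1.20 RPKM in -R but 0.342 in +R and 0.482 in R+LE, with 16 and 29 reads in +R. Sesn3 thus met the limit of 0.5 RPKM for testing only through -R. Its fall with RANKL, counted among the 7 above, is therefore given without a p-value. Chosen after their values were seen, its relative Sesn1 and the Rag GTPase genes Rraga and Rragc, which tether mTORC1 to the lysosome, fell by 0.71, 0.68 and 0.63 (adjusted p = 0.00284, 0.00287 and 0.0018). Mtor itself was between 7.85 and 9.45 RPKM and did not pass in any comparison.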
